A study of Mus musculus with 15 samples.

Results

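The 9 genes Axin2, Notum, Apcdd1, Lef1, Znrf3, Nkd1, Sp5, Tnfrsf19 and Myc are transcribed in response to beta-catenin in many tissues, and most of them feed back on the Wnt pathway. They were chosen by symbol, with earlier results of these data known. Every probe set that carried one of these symbols and no other was described on every array. All 9 were measured, out of 18194 genes, by 22 of the 34958 probe sets that carried a single gene symbol, on Affymetrix mouse arrays holding 45101 probe sets in all. Apcdd1 had 6 probe sets, Nkd1 had 4, Tnfrsf19 had 3, Axin2, Lef1 and Znrf3 had 2 each, and Notum, Sp5 and Myc had 1 each. Levels are log2 signals from RMA, a method that corrects the background, normalises the arrays and combines the probes of a probe set. A difference of 1 on this scale is a 2-fold difference, and levels of different probe sets cannot be compared with each other.

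RNA came from endothelial cells of the adult mouse retina, captured with beads carrying an antibody to PECAM, an endothelial surface protein. Each array held the cells of 5 to 10 pooled mice, labelled as mixed sex, on a mixed C57Bl6/129 background. There were 3 arrays of mice lacking the receptor Frizzled4 (Fz4-/-), 3 of mice lacking the coreceptor Lrp5 (Lrp5-/-), 3 of mice lacking the ligand Norrin (labelled Norrin- and Norrin KO) and 6 of wild type mice. The labels name no Cre line or inducer, and no treatment, and they do not say which part of a gene was removed. Because a pool is the replicate, a p-value here measures the spread between pools of mice.

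Norrin is a secreted ligand that binds Frizzled4 together with Lrp5 or its relative Lrp6 and with the tetraspanin Tspan12. Signalling stops the destruction complex of Axin, Apc and Gsk3 from degrading beta-catenin, which then enters the nucleus and binds the TCF and LEF transcription factors to switch on target genes. Several targets are themselves brakes on the pathway, so their transcripts are widely used as a readout of it, and in the retina this pathway is needed for the growth of the deep vessels and for the blood-retina barrier.

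TCF and LEF proteins recognise a short core of the letters CTTTGA or CTTTGT, and the promoters were searched for both on both strands. RefSeq promoter windows on the GRCm38.p6 assembly ran from 250 bases before to 50 bases after an annotated start, and 5 of the 9 genes had 9 such windows. Windows for Notum, Apcdd1, Znrf3 and Myc were not used here. The following 4 windows are shown because they span the range found, from 5 matches to 0. They are written 5′ to 3′ on the strand of the gene with the matches in capitals, and matches on opposite strands can share a base, which none of those shown does.

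Sp5, chr2:70474673-70474972, plus strand: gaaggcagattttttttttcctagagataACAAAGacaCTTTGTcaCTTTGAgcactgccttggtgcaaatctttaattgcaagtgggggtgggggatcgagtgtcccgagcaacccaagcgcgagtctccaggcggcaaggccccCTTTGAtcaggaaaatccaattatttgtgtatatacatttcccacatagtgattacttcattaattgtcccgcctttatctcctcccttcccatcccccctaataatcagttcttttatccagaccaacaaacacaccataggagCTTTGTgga
Lef1, start 4, chr3:131156044-131156343, plus strand: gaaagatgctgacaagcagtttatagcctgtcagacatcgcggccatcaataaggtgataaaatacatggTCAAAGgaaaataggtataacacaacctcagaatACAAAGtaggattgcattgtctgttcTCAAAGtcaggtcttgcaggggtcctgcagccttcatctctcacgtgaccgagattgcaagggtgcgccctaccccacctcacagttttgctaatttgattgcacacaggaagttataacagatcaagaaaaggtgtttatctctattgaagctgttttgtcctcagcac
Tnfrsf19, start 2, chr14:61037938-61038237, minus strand: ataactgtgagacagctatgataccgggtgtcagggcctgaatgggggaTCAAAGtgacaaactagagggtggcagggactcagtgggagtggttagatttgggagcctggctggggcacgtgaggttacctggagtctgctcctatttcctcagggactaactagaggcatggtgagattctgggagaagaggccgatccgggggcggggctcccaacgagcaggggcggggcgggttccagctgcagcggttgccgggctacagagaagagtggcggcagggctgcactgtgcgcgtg
Axin2, chr11:108920099-108920398, plus strand: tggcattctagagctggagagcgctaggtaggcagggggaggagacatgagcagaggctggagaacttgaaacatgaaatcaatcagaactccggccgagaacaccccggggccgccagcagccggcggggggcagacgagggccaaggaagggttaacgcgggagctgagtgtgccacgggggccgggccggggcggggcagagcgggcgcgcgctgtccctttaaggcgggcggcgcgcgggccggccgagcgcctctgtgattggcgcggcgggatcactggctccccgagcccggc

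The Sp5 window held 5 matches, which began 221, 212, 204 and 104 bases before the start and 41 bases after it. Of 32851 mouse windows of 300 bases, 0.0365% held at least 5. The window at start 4 of Lef1 held 3 matches, 180, 146 and 120 bases before the start and all on the minus strand, and 1.14% of windows held at least 3. Start 2 of Tnfrsf19 had 1 match, 201 bases upstream, and 31.2% of windows held at least 1. No match fell in the windows of Axin2 and Nkd1, at the other Tnfrsf19 start or at the other 3 Lef1 starts. A match is a run of letters and not a measured binding site, and its absence says only that these letters are not in this window.

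**Figure D1:**
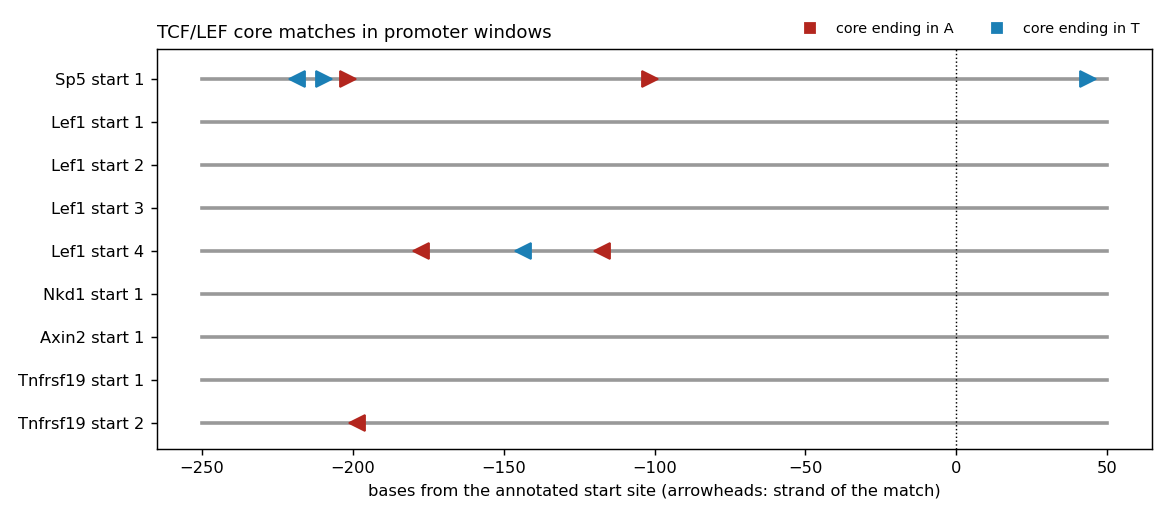
Position of each match to a TCF/LEF core in the 9 promoter windows of 5 genes, in bases from the annotated start, with the arrowhead giving the strand. Sp5 has 5 matches, start 4 of Lef1 has 3, start 2 of Tnfrsf19 has 1, and the other 6 windows have 0.

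The targeted genes were read first. The Fzd4 signal was 3.98 to 4.56 on the Fz4-/- arrays and 11.80 to 12.27 in wild type, and the Lrp5 signal was 4.40 to 5.25 on the Lrp5-/- arrays and 7.22 to 7.95 in wild type. Ndp, the gene of Norrin, gave 3.88 to 4.96 over all 15 arrays, below every array's median of 5.88 to 6.04, and so does not check the Norrin- label. The mean signal of 12 endothelial markers was 11.65 to 11.89 on the mutant arrays and 11.68 to 11.88 in wild type, although over the mean of the mutants 4 of the 12 were lower and 3 higher. The tight junction gene Cldn5 was lowest among them (-1.38) and the sialomucin gene Emcn highest (0.82). Of 14 macrophage and microglia markers, 8 were higher over the mean of the mutants and none was lower, and their summed log2 signal was 14.66 to 15.42 on the mutant arrays and 13.88 to 15.02 in wild type. Rods had 1 higher of 9 measured, pericytes and smooth muscle 4 higher and 1 lower of 10, Muller glia and astrocytes 2 higher and 2 lower of 10, pigment epithelium 3 higher of 8, and red blood cells 2 lower of 4. Beside these marker counts, 14% of all genes were higher and 9.91% lower over the mean of the mutants, at the same limma adjusted p under 0.05. The actin signal of the 3′ probes exceeded that of the 5′ probes, a gap that widens as RNA degrades, by 1.05 to 2.92 on the Norrin- arrays and by 0.56 to 1.04 on the others. Xist, which females express, read 4.12 to 4.98 on all 3 Norrin- arrays, 4.76 to 5.99 on Lrp5-/- 1, Lrp5-/- 2, wild type 4 and wild type 5, and 11.32 to 12.27 on the other 8. The Y-linked Eif2s3y read 2.69 to 3.25 on Fz4-/- 3, Lrp5-/- 3, wild type 3 and wild type 6, and 9.41 to 10.48 on the other 11. Both were high on 4 arrays only (Fz4-/- 1, Fz4-/- 2, wild type 1 and wild type 2), so most arrays went against the label of mixed sex. On the first principal components Lrp5-/- 1 and wild type 4 lay far from the rest of their groups, and results were also computed without these arrays and Lrp5-/- 3, which an earlier analysis of the series had set apart with them. The part that other cell types had in the results was not tested, and in a bulk sample fewer cells of a type and less RNA per cell cannot be told apart.

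Against wild type, 8 of the 9 genes fell and Myc rose in Fz4-/- and in Lrp5-/- endothelium, and 7 fell and Myc rose in Norrin- endothelium, where Nkd1 did not pass. A gene passed at a limma adjusted p under 0.05 over all 18194 genes, with its brightest probe set standing for it. As background, 6.08% of all genes were lower and 10.7% higher in Fz4-/-, 7.27% lower and 5.63% higher in Lrp5-/-, and 9.13% lower and 16.7% higher in Norrin-. Over the mean of the 3 mutants 8 of the 9 fell and 1 rose, against 9.91% of all genes lower and 14% higher. The 9 genes were chosen with earlier results of these data known, so these shares are a background and not a test of the set. All these comparisons share the same 6 wild type arrays. The median difference of the 9 genes was -1.30 in Fz4-/-, -1.74 in Lrp5-/- and -1.43 in Norrin-, while the median over all genes was -0.03, -0.02 and 0.04. In 2 alternatives added after the data were seen, 7, 6 and 6 genes fell in Fz4-/-, Lrp5-/- and Norrin- with the Xist and Eif2s3y signals as covariates, and 8, 8 and 7 with the actin gap as a covariate, and Myc rose in each mutant in both.

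**Figure D2:**
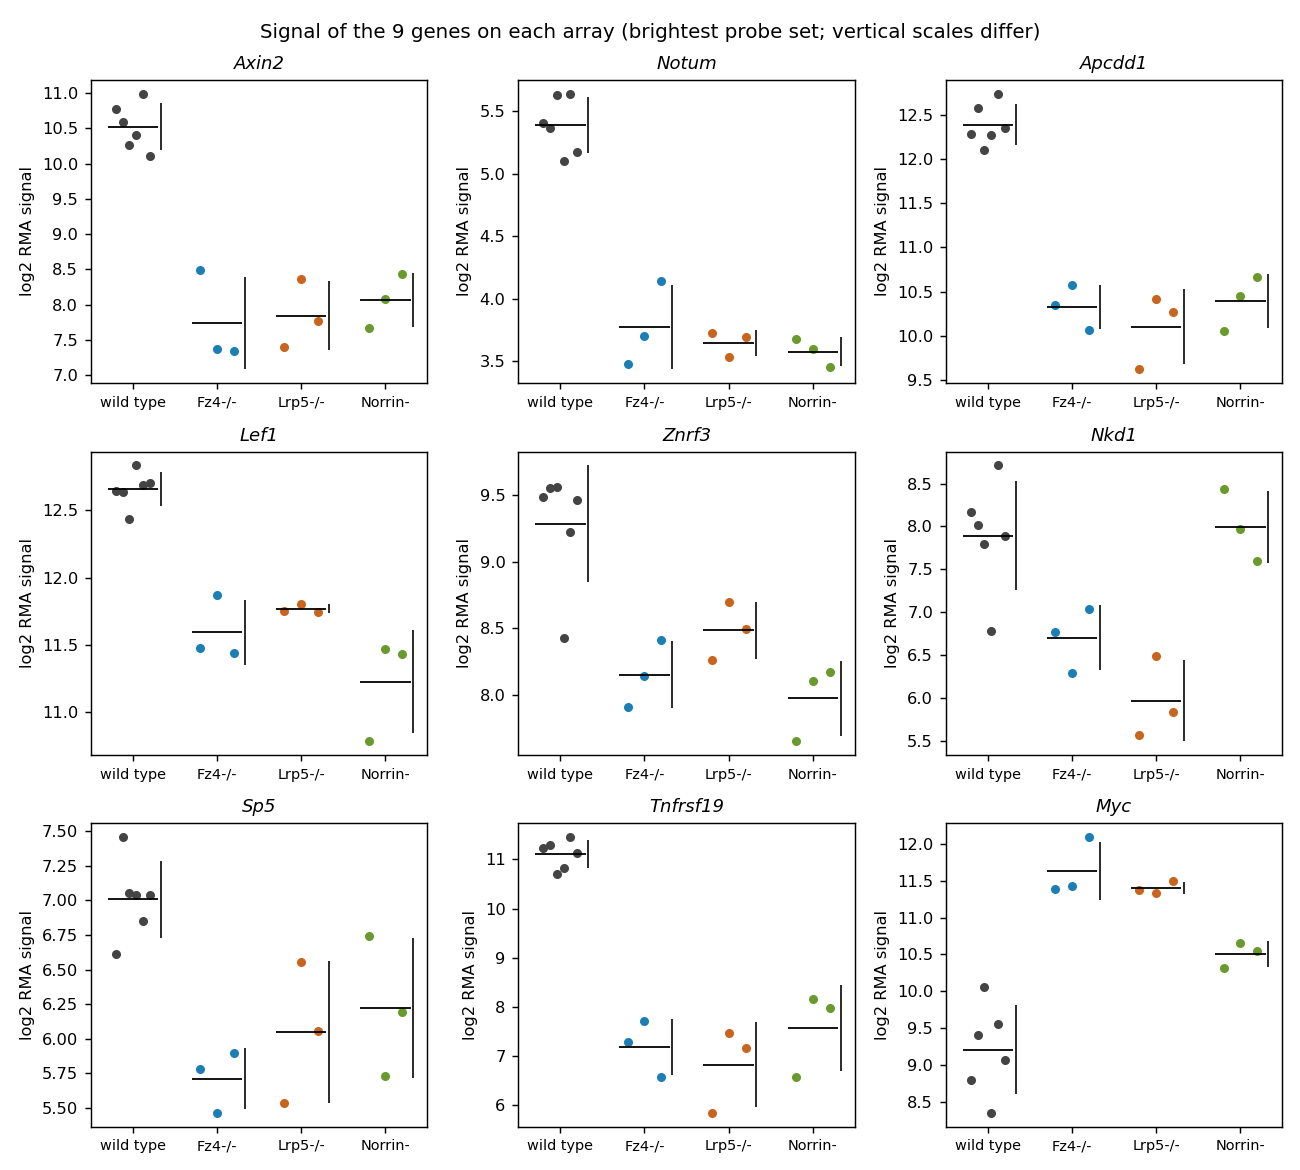
Log2 RMA signal of each gene's brightest probe set on each of the 15 arrays, by group. Points are arrays, horizontal lines are group means and vertical bars are 1 SD; the scales differ between genes. Axin2, Notum, Apcdd1, Lef1 and Tnfrsf19 sit below every wild type array on all 9 mutant arrays, Myc sits above on all 9, and Nkd1 on the Norrin- arrays lies within the wild type range. How often mutant and wild type arrays separate in this way was not counted over all genes.

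Axin2 makes a scaffold of the destruction complex that is induced by beta-catenin and helps to destroy it, and is the most general feedback gene of the pathway. Its brightest probe set gave 8.50, 7.37 and 7.35 on the Fz4-/- arrays, 7.40, 8.37 and 7.77 on the Lrp5-/- arrays and 7.68, 8.08 and 8.44 on the Norrin- arrays. Wild type arrays ran from 10.11 to 10.99 with a median of 10.50, and no mutant array came near the lowest wild type array. Axin2 fell by 2.78 ± 0.29 (SE, n = 3 and 6) in Fz4-/-, by 2.68 in Lrp5-/- and by 2.46 in Norrin- on the log2 scale, with limma adjusted p of 9.9e-06, 1.95e-05 and 2.75e-05. Over the 3 mutants the mutant signal was 16.0% of wild type. The second probe set of Axin2 was dim, below the array's median signal on all 15 arrays, and read 4.03 to 4.50 in mutants against 4.58 to 5.56 in wild type. It fell in each mutant, by 0.58, 0.65 and 0.74 in the order above, with limma adjusted p of 0.0485, 0.0392 and 0.0103 over all probe sets.

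Nkd1, or Naked cuticle 1, binds Dishevelled, the protein that relays the receptor's signal in the cytoplasm, and restrains it. On its brightest probe set, 1429506_at, the Fz4-/- arrays gave 6.77, 6.29 and 7.04, the Lrp5-/- arrays gave 5.58, 6.49 and 5.84, and the Norrin- arrays gave 8.43, 7.97 and 7.60. Wild type arrays gave 6.78 to 8.71 with a median of 7.95. All Lrp5-/- arrays lay below wild type, 1 Fz4-/- array overlapped the lowest wild type array, and all 3 Norrin- arrays lay within the wild type range. Nkd1 fell by 1.92 ± 0.34 (SE) in Lrp5-/- (limma adjusted p = 0.0016) and by 1.19 in Fz4-/- (adjusted p = 0.0266), and in Norrin- it differed by 0.11, with a 95% confidence interval of -0.63 to 0.84 and an adjusted p of 0.848. The Fz4-/- call was lost without Fz4-/- 1 (adjusted p = 0.0727), Fz4-/- 2 (0.124) or wild type 1 (0.0523), and with the Xist and Eif2s3y covariates (0.0771).

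The 4 probe sets of Nkd1 did not give one answer for Norrin-. On 1440446_at the Norrin- arrays read 6.99, 6.95 and 6.79 against 7.53 to 8.09 in wild type, and Nkd1 fell by 0.97 (limma adjusted p over probe sets = 0.00605). On 1417278_a_at the same arrays read 6.46, 6.43 and 6.37 against 7.21 to 7.90, a fall of 1.13 (adjusted p = 0.000279). On both of these every Norrin- array was below every wild type array, unlike the brightest probe set. The last, 1429507_at, was below the array median on all 15 arrays and passed in no mutant, with differences of -0.75 in Fz4-/-, -0.69 in Lrp5-/- and -0.04 in Norrin-. With the mean of all 4 probe sets standing for the gene, the Norrin- difference was -0.51 (adjusted p = 0.0784).

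Between mutants, Nkd1 was the only gene of the 9 whose difference passed, in Norrin- against Lrp5-/-. In that comparison 11.9% of all genes passed, so 1 of 9 is near the share of all genes. Norrin- exceeded Lrp5-/- by 2.03 ± 0.40 (SE, n = 3 and 3; 95% confidence interval 1.18 to 2.87; limma adjusted p = 0.00759), and every Norrin- array was above every Lrp5-/- array. The same difference was 1.14 on 1440446_at (adjusted p = 0.0175), -0.12 on 1417278_a_at (0.725), 0.65 on 1429507_at (0.163) and 0.92 on the mean of all 4 (0.0239). So 2 of the 4 probe sets passed, and the direction on 1417278_a_at was the opposite one. On the brightest probe set the difference did not pass without Lrp5-/- 1, Lrp5-/- 3 and wild type 4 (1.50, adjusted p = 0.174) or with the actin gap as a covariate (1.64, adjusted p = 0.118).

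**Figure D3:**
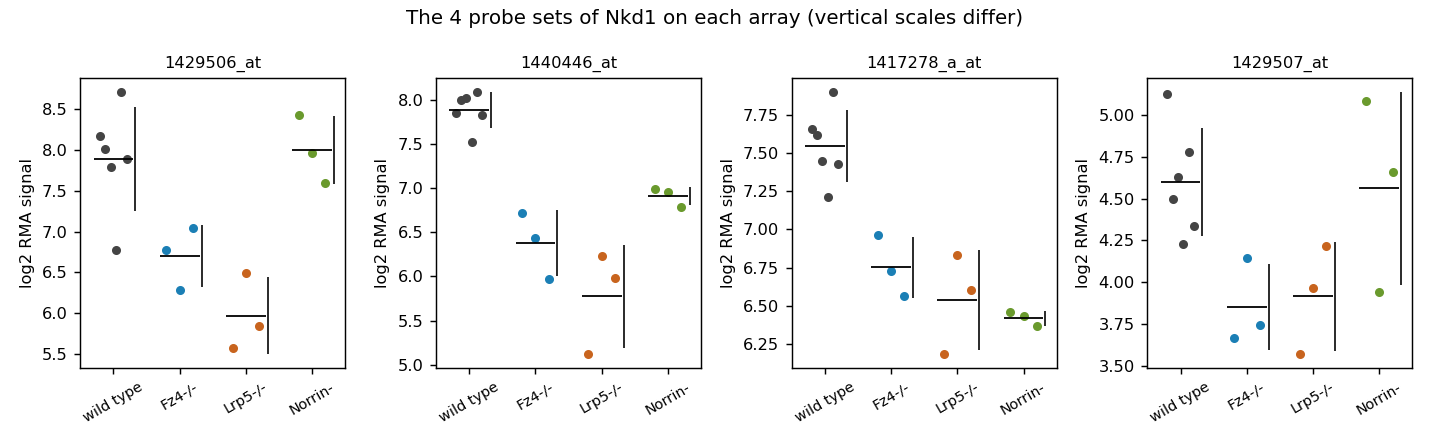
Log2 RMA signal of the 4 Nkd1 probe sets on each array, by group, with group means (horizontal lines) and 1 SD (vertical bars); the scales differ between panels. Norrin- arrays overlap wild type on 1429506_at and 1429507_at, and lie below all wild type arrays on 1440446_at and 1417278_a_at.

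Notum, Apcdd1 and Znrf3 act at or outside the cell surface. Notum is a secreted enzyme that removes the lipid that Wnt ligands need, a lipid Norrin does not carry. Its single probe set read 3.48, 3.70 and 4.14 on the Fz4-/- arrays, 3.53 to 3.72 on the Lrp5-/- arrays and 3.45 to 3.68 on the Norrin- arrays. In wild type it read 5.10 to 5.64 with a median of 5.39, so mutants and wild type did not overlap. These are dim signals, below the array's median on all 15 arrays and below its lower quartile on 8 of the 9 mutant arrays. No detection call comes with the values, so the falls of Notum may be lower bounds. Notum fell by 1.61 ± 0.16 (SE) in Fz4-/-, 1.74 in Lrp5-/- and 1.81 in Norrin- (limma adjusted p = 6.3e-06, 3.98e-06 and 1.95e-06).

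Apcdd1, a membrane protein that binds Wnt and Lrp proteins and inhibits the pathway, is known from retinal vessels. Its brightest probe set gave 10.34, 10.57 and 10.07 on the Fz4-/- arrays, 9.62, 10.42 and 10.27 on the Lrp5-/- arrays and 10.05, 10.45 and 10.66 on the Norrin- arrays. Wild type gave 12.11 to 12.75 with a median of 12.33, well clear of every mutant array. Apcdd1 fell by 2.07 ± 0.20 (SE) in Fz4-/-, 2.30 in Lrp5-/- and 2.01 in Norrin- (limma adjusted p = 5.29e-06, 2.46e-06 and 6.33e-06), which left 23.8%, 20.4% and 24.9% of the wild type signal. Across its 6 probe sets the differences ran from -3.20 to -2.07 in Fz4-/-, from -3.11 to -1.75 in Lrp5-/- and from -3.00 to -1.88 in Norrin-, and 17 of these 18 passed. The exception was 1443639_at in Lrp5-/- (-1.75, adjusted p = 0.0802), where Lrp5-/- 1 read 8.09, inside the wild type range of 7.99 to 8.92, while Lrp5-/- 2 and 3 read 5.09 and 6.58.

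Znrf3 is a membrane ubiquitin ligase that removes Frizzled receptors from the cell surface. Its brightest probe set gave 7.91, 8.14 and 8.41 on the Fz4-/- arrays, 8.26, 8.70 and 8.50 on the Lrp5-/- arrays and 7.65, 8.10 and 8.17 on the Norrin- arrays. Of the wild type arrays, 5 read 9.22 to 9.56 and wild type 4 read 8.43, within the Lrp5-/- values. The gene fell by 1.13 ± 0.23 (SE) in Fz4-/-, 0.80 in Lrp5-/- and 1.31 in Norrin- (limma adjusted p = 0.00349, 0.0357 and 0.000936). On the second probe set it fell in Fz4-/- (0.59) and Norrin- (1.05), and in Lrp5-/- the difference was -0.46 (adjusted p over probe sets = 0.12). The Lrp5-/- call on the brightest probe set passed in 18 of 28 alternative settings, each of which left out arrays or changed a step. It was lost without Lrp5-/- 1 or 3 or any wild type array other than wild type 4, with adjusted p up to 0.164, and with the Xist and Eif2s3y covariates (0.102).

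Lef1 is one of the transcription factors that beta-catenin binds and is also its target. Its brightest probe set gave 11.47, 11.87 and 11.44 on the Fz4-/- arrays, 11.75, 11.81 and 11.74 on the Lrp5-/- arrays and 10.78, 11.47 and 11.43 on the Norrin- arrays, against 12.44 to 12.84 in wild type with a median of 12.67. Every mutant array was below every wild type array. Lef1 fell by 1.06 ± 0.16 (SE) in Fz4-/-, 0.89 in Lrp5-/- and 1.43 in Norrin- (limma adjusted p = 0.000263, 0.00159 and 1.5e-05). A second, dimmer probe set gave larger falls of 1.67, 2.07 and 2.73, from 7.87 to 8.38 in wild type to 4.37 to 6.64 in mutants, with Norrin- 1 the lowest at 4.37. Between Norrin- and Lrp5-/- the brightest probe set differed by -0.54, with every Norrin- array lower, and did not pass (adjusted p = 0.0677). It passed with only genes above the median gene (0.0411), with trend and robust options in eBayes (0.0328) and without Norrin- 2 (0.0438).

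Sp5 is a transcription factor that beta-catenin induces directly in many tissues and that represses other Wnt targets. Its probe set gave 5.78, 5.46 and 5.89 on the Fz4-/- arrays, 5.53, 6.55 and 6.06 on the Lrp5-/- arrays and 6.74, 5.73 and 6.19 on the Norrin- arrays. Wild type gave 6.61 to 7.46 with a median of 7.04, and Norrin- 1 lay above the lowest wild type array. Sp5 fell by 1.30 ± 0.25 (SE) in Fz4-/-, 0.96 in Lrp5-/- and 0.79 in Norrin- (limma adjusted p = 0.00196, 0.0194 and 0.0308). The Lrp5-/- call was lost without Lrp5-/- 1 (adjusted p = 0.132) or Lrp5-/- 3 (0.0643), and without Lrp5-/- 1, Lrp5-/- 3 and wild type 4 together the difference was -0.45. The Norrin- call was lost without Norrin- 2 (0.159), Norrin- 3 (0.0826), wild type 2 (0.059) or wild type 6 (0.0506). Both calls were lost with the replicate number in the model (0.121 and 0.144) and with the Xist and Eif2s3y covariates (0.054 and 0.155). The replicate number gives wild type 4, 5 and 6 a term each, so that setting compares mutants with wild type 1, 2 and 3 only.

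Tnfrsf19, also known as Troy, is a receptor of the TNF family and a known beta-catenin target. It gave 7.27, 7.70 and 6.56 on the Fz4-/- arrays, 5.84, 7.47 and 7.17 on the Lrp5-/- arrays and 6.57, 8.16 and 7.97 on the Norrin- arrays, against 10.71 to 11.46 in wild type with a median of 11.18. Mutant and wild type arrays were far apart. Tnfrsf19 fell by 3.93 ± 0.39 (SE) in Fz4-/-, 4.29 in Lrp5-/- and 3.54 in Norrin- (limma adjusted p = 5.98e-06, 3.35e-06 and 1.44e-05), which are 15.2-fold, 19.5-fold and 11.7-fold. On its other 2 probe sets, both dimmer, it fell in each mutant by 1.55 to 2.50. Of all 18194 genes it ranked 21 from the lowest by the mean difference over the 3 mutants, with Axin2 at 65 and Apcdd1 at 106.

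Taking each probe set on its own, 20 of 22 fell in Fz4-/-, 18 in Lrp5-/- and 19 in Norrin-, where 4.84%, 5.16% and 8.74% of all 34958 probe sets were lower. The probe sets that passed in neither direction were 1429507_at of Nkd1 in each mutant, 1443639_at of Apcdd1 and 1437646_at of Znrf3 in Lrp5-/-, and 1429506_at of Nkd1 in Norrin-. With 1 array left out at a time, 17 to 21 fell in Fz4-/-, 15 to 18 in Lrp5-/- and 17 to 19 in Norrin-. Arrays of one group also differed from each other over these genes. Lrp5-/- 1 was the lowest of its group for 6 of the 8 genes that fell over the mean of the mutants and Lrp5-/- 2 the highest for 7. Norrin- 1 was the lowest of its group for 5 of them, and wild type 5 the highest of wild type for 5. This order was not counted over all genes, so it cannot be read as particular to these genes. Over all probe sets the upper quartile of Lrp5-/- 1 was 8.11, against 8.35 on Lrp5-/- 2 and 8.26 on Lrp5-/- 3.

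Myc drives growth and cell division and is a classic beta-catenin target in intestine, and it went the other way from the other 8. Its probe set gave 11.39, 11.42 and 12.09 on the Fz4-/- arrays, 11.38, 11.34 and 11.49 on the Lrp5-/- arrays and 10.32, 10.66 and 10.55 on the Norrin- arrays. Wild type arrays were spread from 8.35 to 10.06 with a median of 9.24, so all 9 mutant arrays were above all 6. Myc rose by 2.43 ± 0.29 (SE) in Fz4-/-, 2.20 in Lrp5-/- and 1.30 in Norrin- (limma adjusted p = 3.75e-05, 0.000134 and 0.00452), which are 5.38-fold, 4.59-fold and 2.46-fold. Every Norrin- array was below every array of the other mutants. Fz4-/- exceeded Norrin- by 1.13 (95% confidence interval 0.41 to 1.85; adjusted p = 0.091) and Norrin- differed from Lrp5-/- by -0.90 (-1.62 to -0.18; adjusted p = 0.0949), neither of which passed, while Fz4-/- and Lrp5-/- differed by 0.23 (-0.49 to 0.95). The first of these passed with array weights (adjusted p = 0.0449) and without wild type 4 (0.0435), and the Norrin- and Lrp5-/- difference passed with the replicate number in the model (0.0412) and without wild type 4 (0.0429).

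None of the 9 genes differed between Fz4-/- and Lrp5-/- or between Fz4-/- and Norrin- at the threshold, where 0.225% and 2.32% of all genes did, and 1 of 9 did between Norrin- and Lrp5-/-, where 11.9% of genes did. That p missed the threshold does not show that the mutants were alike. The interval of the difference between Norrin- and Lrp5-/- ran from -0.22 to 1.71 for Tnfrsf19 and from -1.09 to 0.07 for Znrf3. For Axin2 the difference between Fz4-/- and Norrin- moved from -0.70 to -0.08 over 28 alternative settings, with no call.

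Other genes of the pathway were read from lists. Of 27 other Wnt feedback and target genes, 25 were measured, and over the mean of the mutants 1 fell and 8 rose, with a median difference of 0.18 against -0.01 for all genes. Of all genes 9.91% fell and 14% rose there. In Fz4-/- 1 fell and 9 rose, in Lrp5-/- 3 fell and 5 rose, and in Norrin- 1 fell and 5 rose. In these mutants 6.08%, 7.27% and 9.13% of all genes fell and 10.7%, 5.63% and 16.7% rose. The rises numbered 5 in Fz4-/- without Fz4-/- 3, and in Lrp5-/- they numbered 8 without wild type 3 and 3 without Lrp5-/- 1, Lrp5-/- 3 and wild type 4. Birc5, which makes the survival protein survivin of dividing cells, read 7.58 to 9.24 on the mutant arrays and 5.14 to 5.91 in wild type, a rise of 2.86 ± 0.16 (SE; limma adjusted p = 9.07e-09). Ccnd1, the cyclin that starts the cell cycle, read 10.77 to 12.00 against 9.92 to 10.47 and rose by 1.20, and the transcription factor Twist1 rose by 0.97. For these 3 genes all 9 mutant arrays were above wild type.

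The other large rises overlapped wild type on some array. The adhesion receptor Cd44 rose by 1.52, the Wnt inhibitor Dkk2 by 1.13 and the vessel growth factor Vegfa by 1.05 over the mean of the mutants. By mutant, Dkk2 did not pass in Lrp5-/- (0.74, limma adjusted p = 0.055) and Cd44 did not pass in Norrin- (1.01, adjusted p = 0.0761). The gene that fell was Sox17, an endothelial transcription factor, at -0.38. Nkd2, the relative of Nkd1, fell in Lrp5-/- (1.10, adjusted p = 0.042) and differed by -0.13 in Fz4-/- and 0.47 in Norrin-, neither past the threshold. The Lrp5-/- call on Nkd2 passed in 5 of the 15 fits that left out 1 array, and 0 to 3 genes of the list fell in Lrp5-/- over these fits, with none without Lrp5-/- 3 and 1 without Lrp5-/- 1, Lrp5-/- 2, wild type 1, wild type 2 or wild type 3. The stem cell receptor Lgr5 (-0.20), the ubiquitin ligase Rnf43 (-0.09), which acts like Znrf3, and the inhibitors Wif1 (0.02), Dkk1 (0.21) and Bambi (0.18) did not pass over the mean of the mutants.

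The machinery of the pathway was counted next. Of 16 genes of the destruction complex and cytoplasmic core none fell and 1, the kinase gene Csnk1d, rose over the mean of the mutants (0.53, limma adjusted p = 0.00334), with a list median of 0.07. Of all genes 9.91% fell and 14% rose there. Ctnnb1, the gene of beta-catenin itself, differed by -0.22 (adjusted p = 0.0601) and Axin1, the constitutive relative of Axin2, by 0.34 (0.327). Of 16 TCF factors and cofactors 4 fell and 1 rose over the mean of the mutants, where 9.91% of all genes fell and 14% rose. Tcf7l1, a mostly repressive TCF, rose by 0.94, reading 8.84 to 9.68 on the mutant arrays and 7.45 to 8.93 in wild type, whereas Tcf7l2 differed by 0.30 without passing (0.101). The 4 that fell were Cby1 (0.65), Pygo2 (0.49), Tle2 (0.44) and Ctnnbip1 (0.41). By mutant 0, 0 and 2 of the 16 fell in Fz4-/-, Lrp5-/- and Norrin-, where 6.08%, 7.27% and 9.13% of all genes fell. With 1 array left out at a time 1 to 4 fell over the mean of the mutants, and none did without Lrp5-/- 1, Lrp5-/- 3 and wild type 4.

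Of the other 3 receptor components besides the deleted receptor and coreceptor, Lrp6 fell in Fz4-/- (0.52, limma adjusted p = 0.00874) and Lrp5-/- (0.58, 0.00584) and differed by -0.20 in Norrin- (0.266), and Tspan12 and Ndp did not pass in any mutant. Fzd4 passed as lower in Norrin-, where it read 11.50, 11.63 and 11.84 against 11.80 to 12.27 in wild type. With 1 array left out, 0 to 1 of the 5 components fell in Norrin-, and 0 did with quantile normalization again. The Fz4-/- call on Lrp6 was lost without Fz4-/- 1 (adjusted p = 0.0517), with the replicate number in the model (0.0646) and with the mean of its probe sets (0.0935). Its Lrp5-/- call was lost with the replicate number (0.0541) and without Lrp5-/- 1, Lrp5-/- 3 and wild type 4 (0.305).

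**Figure D4:**
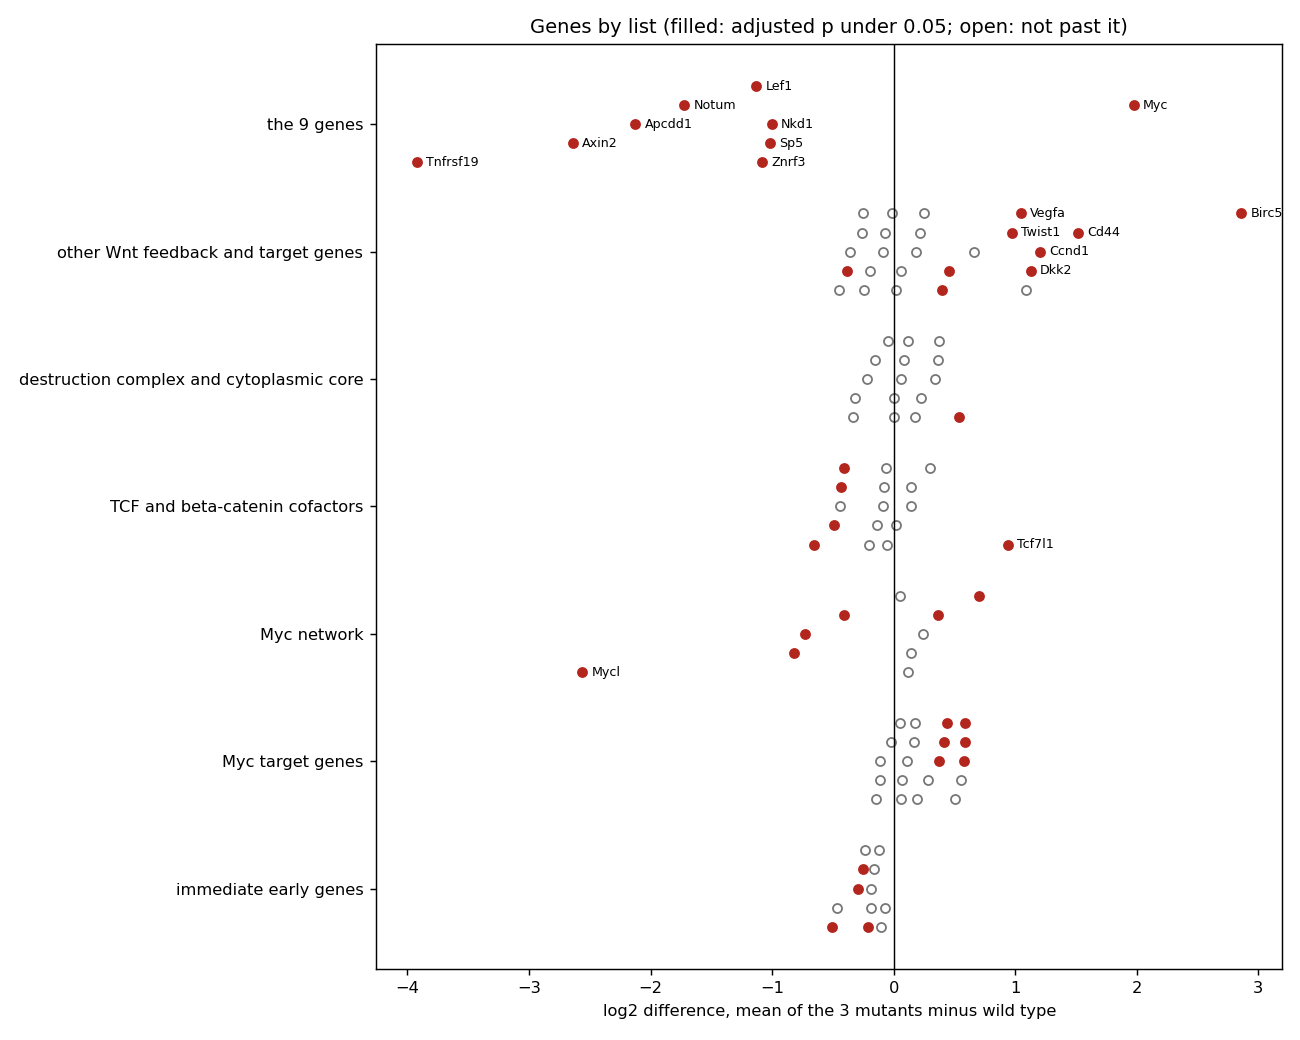
Log2 difference of each measured gene, mean of the 3 mutants minus wild type, by list; filled points passed at a limma adjusted p under 0.05 and open points did not, and called genes beyond 0.9 are named. Of the 9 genes 8 lie below 0, with Tnfrsf19 lowest at -3.92, and Myc lies above at 1.98, while most genes of the other lists lie closer to 0.

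The partners of Myc were read beside it. Of 10 genes of the Myc network 4 fell and 2 rose over the mean of the mutants, where 9.91% of all genes fell and 14% rose. By mutant 3, 4 and 3 fell and 2, 0 and 2 rose in Fz4-/-, Lrp5-/- and Norrin-. The shares of all genes in that order were 6.08%, 7.27% and 9.13% lower and 10.7%, 5.63% and 16.7% higher. With 1 array left out at a time, 1 to 4 of the 10 network genes fell in Fz4-/- and 3 to 4 in Lrp5-/-, and 0 to 2 rose in Fz4-/-. Mycl, a Myc relative, read 4.31 to 6.87 on the mutant arrays and 7.85 to 8.32 in wild type and fell by 2.56 ± 0.31 (SE; limma adjusted p = 2.6e-05), with falls of 2.70, 2.65 and 2.33 in Fz4-/-, Lrp5-/- and Norrin-. Max, the obligate partner of Myc, fell by 0.82 and Mycn by 0.73. The other fall and the 2 rises of this list are not named here. The size of the Mycl fall was 0.92 under the alternative that moved it most, with an adjusted p no higher than 0.00568 under any.

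Of 20 known Myc targets, most of them genes of ribosome synthesis, metabolism and growth, 6 rose and none fell over the mean of the mutants, with a median of 0.18. Of all genes 14% rose and 9.91% fell there. By mutant 6 of the 20 rose in Fz4-/-, 3 in Lrp5-/- and 4 in Norrin-, where 10.7%, 5.63% and 16.7% of all genes rose. In Lrp5-/- the count was 1 without Lrp5-/- 1 or Lrp5-/- 3, 5 without wild type 3 and 0 without Lrp5-/- 1, Lrp5-/- 3 and wild type 4, and in Norrin- it was 1 without Norrin- 1 and 2 without wild type 5 or wild type 6. The largest rises were small beside that of Myc. They were 0.59 for Fbl, which makes the nucleolar protein fibrillarin, 0.58 for the spermidine synthase gene Srm and 0.58 for Wdr43. Of 12 immediate early genes, which like Myc respond within minutes to growth signals, none rose and 4 fell over the mean of the mutants. There 14% of all genes rose and 9.91% fell. The 4 falls were 0.50 for Ier2, 0.29 for Fos, 0.25 for Jun and 0.21 for Egr1. By mutant 0, 0 and 3 of these 12 fell in Fz4-/-, Lrp5-/- and Norrin-, where 9.13% of all genes fell in Norrin-. The Norrin- count was 1 without Norrin- 1, wild type 2 or wild type 6, 5 without Norrin- 3 and 6 without wild type 1, and the count over the mean of the mutants was 2 without Lrp5-/- 1, Lrp5-/- 3 and wild type 4.

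The genes whose pattern over the 15 arrays was closest were found for 3 of the 9, among the 9097 genes brighter than the median gene. Likeness was the root mean square difference between log2 signals, each centred on its gene's own mean. Nearest to Axin2 were St6galnac2 (0.36), Slc19a1 (0.36), Cd320 (0.36), Slc35f2 (0.37) and Elovl7 (0.38). Tnfrsf19 was nearest to Cutal (0.45), Gkn3 (0.58), Flvcr2 (0.62), Apod (0.62) and Mfsd2a (0.63), the last a lipid transporter of barrier endothelium. Myc had Micall2 (0.32), Plekho2 (0.32), Cemip2 (0.34), Prdm1 (0.34) and Got1 (0.34). Over the mean of the mutants these neighbours differed from wild type by -2.90 to -2.38 for Axin2, by -4.07 to -3.12 for Tnfrsf19 and by 1.74 to 2.26 for Myc. The neighbours were picked for likeness over these same arrays, so differences near those of the 3 genes were fixed by the choice.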

How the data were processed

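Gene expression was measured on 15 Affymetrix mouse arrays, and the values used are the authors' deposited log2 signals of 45101 probe sets, which the submitters' processing notes say came from RMA. Its version and settings are not stated in the sources used here. A log2 signal carries no read depth, and the number of arrays limits the precision. Probe sets were named from GEO's platform annotation, which can be old: 34958 carried 1 symbol, 932 several and 9211 none, and only the first were used. None of the probe sets with several symbols held one of the 9 genes.

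All arrays were fitted together in limma 3.58.1 under R 4.3.3 (lmFit with 4 group means, contrasts.fit, eBayes). The main values used 1 probe set per gene, the one with the highest mean, and p-values adjusted by Benjamini and Hochberg over 18194 genes. A second fit used every probe set with 1 symbol. The threshold was an adjusted p of 0.05. No filter on dim signals was applied, and the fit was tested on simulated data. The 9 genes and all lists were chosen with earlier results of these data known. Genes outside the 9 were named by rule: from each list up to 6 past the threshold with the largest change over the mean of the mutants, genes of a list given as not past it, and for 3 genes the 5 nearest by pattern; those passing in single mutants were added after their values were seen. Each array was left out in turn, and 13 other settings were tried, of which 2, with covariates, were added after the data were seen.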

Additional observations from a re-analysis of the deposited data

Results flagged for a closer look

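The difference of Nkd1 between mutants was tested directly and passed: Norrin- exceeded Lrp5-/- by 2.03 on the log2 scale (limma adjusted p = 0.00759). In this comparison 11.9% of all genes passed. The Nkd1 difference has limits. It did not pass without Lrp5-/- 1, Lrp5-/- 3 and wild type 4 (adjusted p = 0.174) or with the actin gap as a covariate (0.118), and on probe set 1417278_a_at it was -0.12. Single arrays stood far from the others of their group for 2 probe sets, out of 22 that were examined in the wild type group, a rate that chance alone can give at the level used. Wild type 5 read 5.56 on the dim Axin2 probe set 1421341_at, and the next wild type array read 4.94. Wild type 4 read 8.43 on the brightest Znrf3 probe set, and the next read 9.22.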

How the results depend on the processing

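Against wild type, Axin2, Notum, Apcdd1, Tnfrsf19 and Myc kept their direction and stayed past the threshold in all 3 mutants in every setting that gave a value. There were 28 settings, 15 of which left out 1 array and 2 of which (the Xist and Eif2s3y signals, or the actin gap, as covariates) were added after the data were seen, and Notum and Sp5 had no value when only genes above the median gene were kept. The number of the 9 genes that fell in Lrp5-/- was 5 instead of 8 without Lrp5-/- 1, Lrp5-/- 3 and wild type 4, where Lef1 (limma adjusted p = 0.131), Znrf3 (0.125) and Sp5 (0.708) did not pass and a single Lrp5-/- array was assumed to vary like the other groups. The number of calls over the 9 genes and the 3 pairs of mutants was 1, and was 2 with only genes above the median gene, 2 with eBayes trend and robust, 2 with the replicate block, 3 with array weights gene by gene and 0 with the actin gap as a covariate. With 1 array left out it ran from 1 to 4, reaching 4 without wild type 4 (Nkd1 and Myc, in 2 pairs each) and 2 without Norrin- 2. No difference that passed reversed. Equal replicate numbers gave no clear pairing: 5 of 18 pairs of same-numbered arrays had deviations correlated above 0.1, and the range was -0.24 to 0.38. Of 12 arrays, 5 correlated best with their own number. Only arrays numbered 1 to 3 entered this check. By Xist, Lrp5-/- 1, 2 and 3 (5.90, 4.76 and 12.21) lay near wild type 4, 5 and 6 (5.99, 4.88 and 12.27). Their Eif2s3y signals were 10.11, 10.48 and 3.21 against 10.29, 10.22 and 2.81. A pairing across different numbers was not tested, and the main fit used no pairing. The replicate block gave wild type 4, 5 and 6 a term each, so it compared mutants with wild type 1, 2 and 3 only. With this block 8 genes fell in Fz4-/-, 7 in Lrp5-/- and 6 in Norrin-. Of the lists, the Wnt targets rising over the mean of the mutants numbered 6 to 9 with 1 array left out, and the Myc targets 5 to 6. Limits are the pools, which hide the spread between mice, the dim signals of Notum and of some second probe sets, and the lack of a readable Ndp signal to check the Norrin- label. The actin gap was 1.05 to 2.92 on the Norrin- arrays and 0.56 to 1.04 on all others. Its part in a Norrin- difference therefore cannot be told apart from that of the genotype. All 3 Norrin- arrays also read low for Xist (4.12 to 4.98), while only wild type 4 and wild type 5 did so among wild type.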
